A study of Homo sapiens with 14 samples.

Results

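IGF1R, the receptor for insulin-like growth factors (IGFs), and the 7 IGF-binding protein genes IGFBP1 to IGFBP7 were followed in LNCaP cells treated with an androgen, with a translation inhibitor, or with the 2 together. The 8 genes were chosen by name, and each had at least 1 probe among the 14533 named genes of the arrays. Their 12 probes were taken from 27648 on each array. IGFBP3 rose and IGFBP2 fell in both treatments that contained the inhibitor. No change of the other 6 genes passed the test in those treatments, and no change of any of the 8 passed it with androgen alone. With androgen alone the test called 1 of all 14533 genes, so a missed call there does not show that a response was absent.

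LNCaP is an established human cell line from a prostate cancer metastasis that responds to androgens. It carries a mutated androgen receptor, which limits it as a model of normal prostate epithelium. All cells, controls included, were kept without steroids for 48 h. Controls then received no stimulus, and the treated cells received 1 nM R1881 (a synthetic androgen), 25 µg/ml cycloheximide (CHX, which blocks the elongation step of translation), or both together, for 24 h. Each array compared the RNA of 2 such cultures in the dyes Cy3 and Cy5. Each treatment was set against control on 4 arrays, from 2 independent culture experiments run in both dye orientations, and CHX plus R1881 was also set directly against CHX on 2 arrays, a dye swap that the labels give the replicate number 1 without saying which cultures it shares with the other treatments. The files hold log ratios, taken as log2, and no levels, so neither the amount of each transcript nor LNCaP markers could be checked. The median ratio of each array lay near 0, so rises and falls here are relative to the median probe.

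IGF1 and IGF2 signal through IGF1R, a receptor tyrosine kinase of the cell surface that recruits the IRS proteins and SHC1 and activates the PI3K-AKT and MAP kinase pathways. IGFBP1 to IGFBP6 are secreted proteins that bind both IGFs with high affinity and so hold them away from the receptor, or deliver them when a protease cuts the binding protein. IGFBP7 binds IGFs only weakly. In prostate, IGF signalling supports growth of normal and malignant epithelium, and prostate kallikreins can cut IGFBP3.

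IGFBP3 lies next to IGFBP1 on chromosome 7 and IGFBP2 lies next to IGFBP5 on chromosome 2, with 0 annotated genes between the members of either pair in the RefSeq annotation of GRCh38.p14. The sequences that precede the start of IGFBP2 and IGFBP3, the 2 genes that changed, are shown from that build (250 bases each, 5′ to 3′ on the gene's strand). The IGFBP2 window is chr2:216632578-216632827 on the plus strand and lies before the first of 3 annotated starts, and the IGFBP3 window is chr7:45921273-45921522 on the minus strand. Capitals mark matches on either strand to the GC box GGGCGG or to AGAACA, the half-site of the androgen response element.
IGFBP2: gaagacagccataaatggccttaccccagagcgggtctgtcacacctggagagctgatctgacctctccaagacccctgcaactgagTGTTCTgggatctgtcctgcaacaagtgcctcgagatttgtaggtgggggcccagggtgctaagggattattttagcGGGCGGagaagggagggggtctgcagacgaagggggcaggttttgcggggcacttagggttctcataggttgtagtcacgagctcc
IGFBP3: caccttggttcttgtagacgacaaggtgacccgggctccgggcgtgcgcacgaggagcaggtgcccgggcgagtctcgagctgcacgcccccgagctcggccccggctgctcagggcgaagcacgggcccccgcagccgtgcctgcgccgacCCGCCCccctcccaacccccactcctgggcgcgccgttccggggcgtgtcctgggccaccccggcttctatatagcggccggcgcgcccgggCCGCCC
The IGFBP3 window holds 2 GC boxes and has a GC content of 76.0%, against 1 GC box and 56.8% in the IGFBP2 window. The IGFBP2 window also holds 1 androgen response element half-site. These contents depend on the start: the second IGFBP2 window holds 1 GC box, 0 half-sites and 69.2% GC, and the third 0 GC boxes, 1 half-site and 56.4% GC. Neither window shown holds the letters TATAAA. Of all 35116 windows of this length in the RefSeq table, 42.6% hold a GC box, 12.4% the half-site and 10.7% TATAAA. These matches describe letters in a window and were not tested for binding.

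The labels name both RNAs of an array but not the numerator, and all values were multiplied by −1. The basis was a list of androgen-induced genes such as KLK3 and TMPRSS2, of which 28 of 32 measured had a deposited R1881 ratio below 0 (median −0.24). Which way a value points is thus likely but not settled, and that androgen-induced genes lie above 0 here is no result. Of 35 immediate-early transcripts, 27 had a deposited CHX ratio below 0 (median −0.35). Across all probes, the dye-swapped arrays of an experiment correlated at 0.134 and 0.216 with R1881, at 0.788 to 0.893 in the treatments with CHX, and at −0.0427 on the direct arrays. Across all genes, limma called 1 of 14533 with R1881 (0.00688%), 5519 with CHX (38%) and 5443 with CHX plus R1881 (37.5%) at a Benjamini-Hochberg adjusted p under 0.05. Of the 8 IGF genes, 0, 2 and 2 were called. With 8 genes, 2 called is within about 1 gene of the share of all genes. Over all genes, 20.5% rose and 17.5% fell with CHX, and 20.8% rose and 16.6% fell with CHX plus R1881, while 1 of the 8 rose and 1 fell in each.

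IGFBP3 encodes the main carrier of IGFs in blood. In CHX versus control, its log2 ratios were 0.71 with the treated RNA in Cy3 and 0.69 with it in Cy5 in experiment 1, and 0.39 and 0.43 in experiment 2. All 4 arrays were above 0, and experiment 1 lay above experiment 2 in both dye orientations. IGFBP3 rose by 0.56 ± 0.20 (SD, n = 2 experiments) on the log2 scale, or 1.47-fold (limma adjusted p = 0.00876, 95% interval 0.30 to 0.81). Without experiment 1 of CHX its call was lost (0.41, adjusted p = 0.0745).

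With CHX plus R1881 against control, the IGFBP3 arrays gave 0.88 and 0.89 in experiment 1 and 0.58 and 0.61 in experiment 2. The rise was 0.74 ± 0.20 (1.67-fold, adjusted p = 0.00309, interval 0.49 to 1.00). Experiment 1 again lay above experiment 2, and the 2 dye orientations of an experiment lay close together. Both treatments were measured against control RNA, and whether it came from the same control cultures is not stated.

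IGFBP3 was measured by 2 probes, both annotated with its RefSeq transcript. In CHX versus control, the first probe had 0.46 ± 0.17 (adjusted p = 0.0495 with each probe tested alone) and the second 0.65 ± 0.24 (adjusted p = 0.00334). In CHX plus R1881 versus control they had 0.53 ± 0.38 (adjusted p = 0.0328) and 0.96 ± 0.03 (adjusted p = 0.000925). Both probes were called in both treatments. They differed most in experiment 2 of CHX plus R1881, where the first gave 0.26 and the second 0.94.

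IGFBP2 encodes a binding protein that is abundant in many carcinomas. Its log2 ratios in CHX versus control were −0.82 and −0.76 in experiment 1 and −0.74 and −0.67 in experiment 2, in the same order of dyes. All 4 were below 0 and they spanned a narrower range than those of IGFBP3. IGFBP2 fell by 0.75 ± 0.06 (1.68-fold lower, adjusted p = 0.00196, interval −0.98 to −0.52).

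With CHX plus R1881 against control, the IGFBP2 arrays gave −0.63 and −0.56 in experiment 1 and −0.64 and −0.74 in experiment 2. IGFBP2 fell by 0.64 ± 0.07 (1.56-fold lower, adjusted p = 0.00337, interval −0.87 to −0.42). After quantile normalization of all arrays its values were −0.52 with CHX (adjusted p = 0.0879) and −0.46 with CHX plus R1881 (adjusted p = 0.119), and neither was called. IGFBP2 was measured by 1 probe, so no second probe checks these values.

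**Figure D1:**
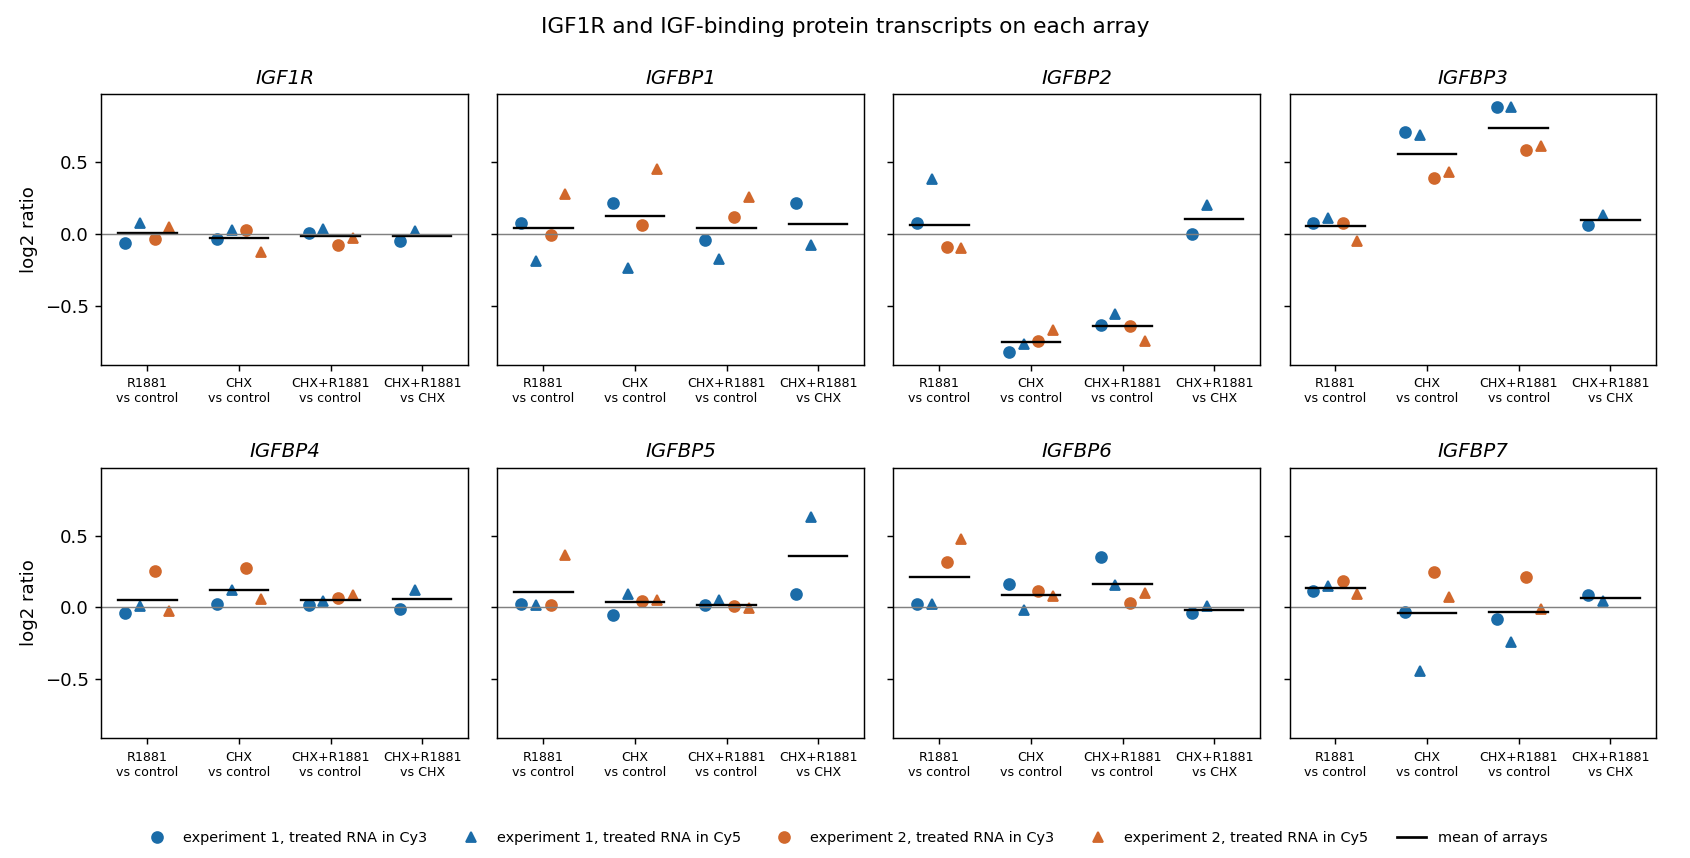
Log2 ratio (y axis) of IGF1R and IGFBP1 to IGFBP7 on each of the 14 arrays, by comparison (x axis), with probes of a gene averaged; colour marks the experiment, shape the dye of the treated RNA, and bars the mean over arrays. All IGFBP2 arrays of the 2 treatments with CHX against control lie between −0.82 and −0.56, and all IGFBP3 arrays between 0.39 and 0.89.

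The remaining genes were not called in either treatment with CHX. IGF1R had −0.03 ± 0.03 with CHX (interval −0.16 to 0.11) and −0.01 ± 0.05 with CHX plus R1881 (interval −0.15 to 0.12). Both intervals exclude a 1.5-fold change, as do those of the other uncalled genes in these treatments. Whether the probes had signal above background is unknown. The IGF1R arrays ranged from −0.13 to 0.04 over both treatments. IGF1R has 2 probes, of which the second, a cDNA clone named only by the platform's symbol, was below the first in each comparison with control. With CHX the first had 0.06 and the second −0.11.

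IGFBP4, which pappalysins cut to release IGFs, had 0.12 ± 0.07 with CHX (adjusted p = 0.208, interval −0.04 to 0.28) and 0.05 ± 0.03 with CHX plus R1881 (adjusted p = 0.575). Its 8 arrays in these treatments were all above 0, from 0.02 to 0.27. The probe of its RefSeq transcript had 0.00 with CHX, and a clone named only by the platform's symbol had 0.24 (adjusted p = 0.0938 alone). IGFBP5, a binding protein that associates with extracellular matrix, had 0.03 ± 0.02 with CHX and 0.02 ± 0.02 with CHX plus R1881. IGFBP6, which prefers IGF2 over IGF1, had 0.09 ± 0.02 and 0.16 ± 0.13 (interval −0.10 to 0.42).

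IGFBP1 and IGFBP7 varied both between the experiments and between the dye orientations of an experiment. IGFBP1, whose liver expression insulin represses, had array values of 0.22 and −0.23 in experiment 1 and 0.07 and 0.46 in experiment 2 of CHX versus control, so its dye orientations had opposite signs in experiment 1. Its mean was 0.13 ± 0.19 (adjusted p = 0.417, interval −0.14 to 0.39). IGFBP7 had −0.03 and −0.44 in experiment 1 and 0.24 and 0.07 in experiment 2, with a mean of −0.04 ± 0.28 (adjusted p = 0.823, interval −0.32 to 0.24). In CHX plus R1881 versus control both genes were again lower in experiment 1 than in experiment 2, with −0.11 and 0.19 for IGFBP1 and −0.16 and 0.10 for IGFBP7.

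**Figure D2:**
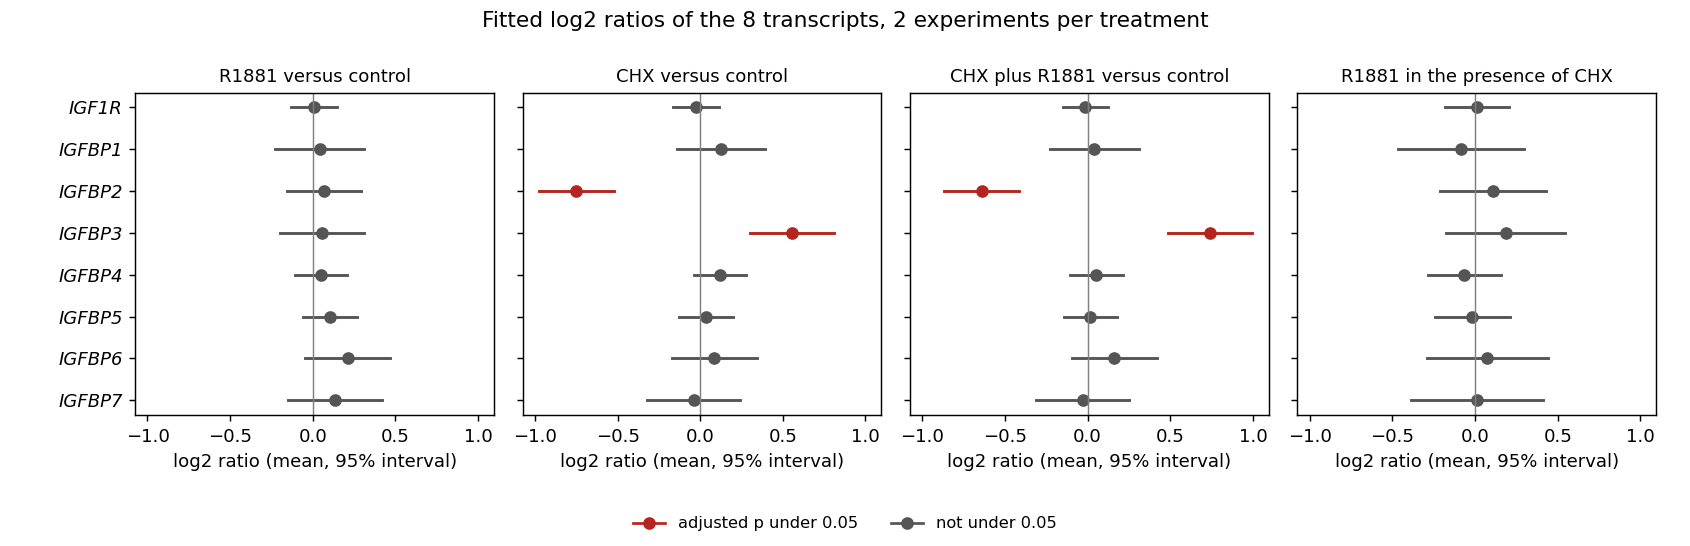
Fitted log2 ratio (x axis, points) of each of the 8 genes (y axis) with its 95% interval (lines) in 4 comparisons, from 2 experiments per treatment; red marks an adjusted p under 0.05. Only the IGFBP2 and IGFBP3 intervals in the 2 middle panels lie wholly on 1 side of 0.

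R1881 versus control asks how androgen alone affects these transcripts. IGFBP6 had the value farthest from 0 of the 8, 0.21 ± 0.26 (adjusted p = 0.835, interval −0.05 to 0.47). Its arrays gave 0.03 and 0.02 in experiment 1 and 0.32 and 0.48 in experiment 2, so the values above 0.1 came from experiment 2. IGFBP7 had array values of 0.11, 0.15, 0.18 and 0.10, all above 0, with a mean of 0.14 ± 0.0054 (adjusted p = 0.976, interval −0.15 to 0.42). Its SD between the experiments was far smaller than the spread pooled over treatments on which the interval rests.

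IGFBP5 had 0.10 ± 0.12 with R1881 (adjusted p = 0.907). Of its 2 probes, one gave 0.05 and 0.11 in experiment 1 and 0.07 and 0.93 in experiment 2, and the other lay between −0.20 and 0.00 on the 4 arrays. The value of 0.93 came from 1 array, with the treated RNA in Cy5. IGFBP2 had 0.08 and 0.38 in experiment 1 and −0.09 and −0.10 in experiment 2, so the experiments lay on opposite sides of 0 (mean 0.07 ± 0.23). IGFBP3 had 0.05 ± 0.06 (interval −0.20 to 0.31), IGFBP4 0.05 ± 0.09, IGFBP1 0.04 ± 0.13 and IGF1R 0.01 ± 0.0008 (interval −0.13 to 0.15).

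The means of all 8 genes were above 0 with R1881, with a median of 0.06 against −0.00 over all genes. Without its highest array IGFBP4 averaged −0.02, and IGFBP5 without its highest averaged 0.02. At single probes, IGF1R (second, −0.04), IGFBP4 (first, −0.03) and IGFBP5 (second, −0.08) lay below 0. The other probe of each of these genes lay above 0, so a shared rise is not shown. None of the 8 gene means had an unadjusted p under 0.05, and the smallest was 0.0911 for IGFBP6. Tested alone by limma, the first IGFBP5 probe had 0.29 (unadjusted p = 0.0386, adjusted p = 0.811), with 0.93 on 1 array. Over all genes limma gave 921 unadjusted p values under 0.05 in this comparison, against 727 expected by chance. The fit to 4 arrays a group, with the experiment as a random block, also called 0 of the 8, beside 172 of all 14533 genes. The main fit called 1 of all genes with R1881, so a missed call here does not show that a response was absent.

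**Figure D3:**
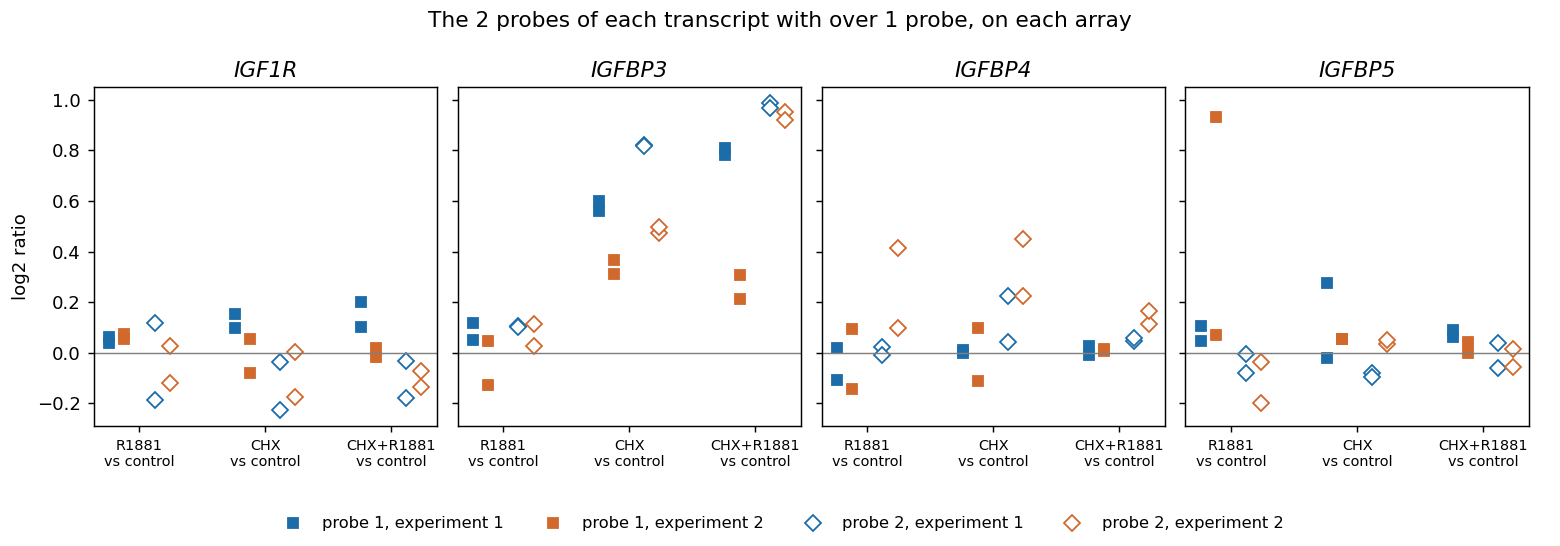
Log2 ratio (y axis) on each array of both probes of the 4 genes that have 2 probes, by comparison with control (x axis); filled squares are the first probe, open diamonds the second, and colour marks the experiment. Both IGFBP3 probes lie above 0 on all arrays with CHX, and 1 IGFBP5 point with R1881 stands at 0.93.

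R1881 in the presence of CHX, the difference between CHX plus R1881 and CHX, asks whether androgen acts on these transcripts while protein synthesis is blocked. For IGFBP3 this difference was 0.19 (interval −0.17 to 0.55, limma adjusted p = 0.9999). Subtracting experiments of equal number gave 0.19 for each number. The labels do not say that equal numbers belong together, and the fit does not pair them, so this likeness rests on an assumed pairing. The direct arrays of CHX plus R1881 against CHX gave IGFBP3 values of 0.07 and 0.13. Across all probes these arrays correlated at −0.0427, and the sign was checked only in the comparisons with control. The direct values are thus no check of the difference. The second IGFBP3 probe had 0.30 (interval −0.01 to 0.62) and the first 0.07 (interval −0.42 to 0.56). The difference was not called, and limma called 0 of the 14533 genes in this contrast (0%), with 185 at an unadjusted p under 0.05. With errors of the right size chance alone would give about 727 on average. Whether the fit was conservative in this contrast was not tested, and a missed call does not show that a response was absent.

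For IGFBP2 the same difference had a mean of 0.11 (interval −0.21 to 0.43). It was 0.20 and 0.02 when experiments of equal number were subtracted, under the same assumed pairing. The direct arrays gave IGFBP2 values of 0.00 and 0.20. The means of the other 6 genes lay between −0.08 for IGFBP1 and 0.07 for IGFBP6. On the direct arrays IGFBP5 had 0.09 and 0.63, the latter the farthest from 0 of the 8 genes there, while its indirect difference was −0.02. The direct arrays are 1 dye swap and were not tested.

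The R1881 responses without and with CHX were compared as a difference between both contrasts. It lay between −0.13 for IGFBP3 (interval −0.57 to 0.31) and 0.14 for IGFBP6 (interval −0.31 to 0.58), and 0 of the 8 genes were called. Limma called 0 of the 14533 genes in this contrast as well (0%), with 356 at an unadjusted p under 0.05, also fewer than the 727 expected, and 0 of the 8.

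The genes with the most similar values over the 12 arrays against control were found by the root mean square difference of log2 ratios. For IGFBP3 they were DHX35, an RNA helicase gene (0.0717), and PAM, which amidates peptide hormones (0.0763). PAM had 0.12 with R1881, 0.61 with CHX and 0.74 with CHX plus R1881. For IGFBP2 they were PKM, a glycolytic kinase (0.110), and VWA1, an extracellular matrix protein gene (0.119). PKM had 0.12, −0.66 and −0.65 in the same comparisons. All 12 arrays are ratios to control RNA, and likeness of this kind describes the values only.

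The other measured genes of the pathway were taken by role. Of 64, 0 were called with R1881, 13 rose and 19 fell with CHX, and 12 rose and 17 fell with CHX plus R1881. That is 50% called with CHX against 38% of all genes, and 45.3% against 37.5% with CHX plus R1881. By direction, the shares of all genes were 20.5% up and 17.5% down with CHX and 20.8% up and 16.6% down with both, against which the counts of each role should be read. Their medians of −0.02 with CHX and −0.01 with CHX plus R1881 lay near those of all genes, 0.00 and 0.01. Among 6 ligands and other receptors, 0 rose and 2 fell with CHX, with 38% of all genes called. IGF2R, which takes up IGF2 for degradation in lysosomes, fell by 1.00 ± 0.11 with CHX (adjusted p = 0.000290) and by 0.76 ± 0.02 with CHX plus R1881 (adjusted p = 0.000635). IGF2 fell by 0.30 ± 0.06 with CHX (adjusted p = 0.0122), with −0.10 (adjusted p = 0.278) and −0.51 (adjusted p = 0.00431) at its 2 probes. Without experiment 2 of CHX the IGF2 call was lost (−0.26, adjusted p = 0.0906), as it was with the Cy5 arrays alone (adjusted p = 0.0712), scaling over all arrays (0.0634), quantile normalization (0.110) or a fit to its own 2 values (0.0739). In CHX plus R1881, where IGF2 had −0.27 (adjusted p = 0.0197), the call was lost without experiment 1 (−0.25, adjusted p = 0.133) or 2 (−0.28, adjusted p = 0.0906) and under the same 4 alternatives (adjusted p from 0.0554 to 0.141). IGF1 had −0.14 ± 0.09 (adjusted p = 0.222) and INSR, the insulin receptor gene, −0.21 ± 0.02 (adjusted p = 0.0870) with CHX.

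Among 15 measured partners, proteases and protease inhibitors of the binding proteins, 0 rose and 5 fell with CHX, and 0 rose and 3 fell with CHX plus R1881, beside 38% and 37.5% of all genes called. KLK3, prostate-specific antigen, which can cut IGFBP3, fell by 1.54 ± 0.19 with CHX (adjusted p = 0.000182) and had 0.98 ± 0.01 with R1881 (adjusted p = 0.126). With R1881 its 3 probes gave 1.49, −0.36 and 1.81, of which the last was called alone (adjusted p = 0.00641). KLK2, a related kallikrein, fell by 0.42 ± 0.03 with CHX (adjusted p = 0.00810), a call lost without experiment 1 (−0.44, adjusted p = 0.0502) or 2 (−0.40, adjusted p = 0.0549), with all arrays scaled alike (−0.28, adjusted p = 0.284) and under quantile normalization (−0.30, adjusted p = 0.0854). It had 0.77 ± 0.17 with R1881 (adjusted p = 0.126), with 1.65 and −0.12 at its 2 probes. With 4 arrays a group and the experiment as a random block, KLK3 (adjusted p = 0.000187) and KLK2 (adjusted p = 0.000244) were called with R1881. Both genes are in the list that set the sign of all values, so their direction with R1881 is no result. STC2, an inhibitor of pappalysins, fell by 0.77 ± 0.28 with CHX (adjusted p = 0.00704, and 0.0587 without experiment 1). HTRA1, a serine protease that cuts binding proteins, fell by 0.72 ± 0.41 with CHX (adjusted p = 0.0234), which was 0.176 without experiment 1 of CHX, where HTRA1 had −0.43, and 0.0536 without either R1881 experiment. It was also above 0.05 with the Cy5 arrays alone (0.0854), scaling over all arrays (0.0521), quantile normalization (0.0629) and a fit to its own 2 values (0.0631). With CHX plus R1881 the calls of STC2 (−0.40, adjusted p = 0.173) and HTRA1 (−0.66, adjusted p = 0.104) were likewise lost without experiment 1.

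Among 15 measured substrates and adaptors of the receptor, 4 rose and 3 fell with CHX, as with CHX plus R1881, beside 38% and 37.5% of all genes called. SOCS2, a feedback inhibitor of cytokine and growth hormone signalling, rose by 1.26 ± 0.14 with CHX (adjusted p = 0.000197). IRS1, the main docking protein of the activated receptor, rose by 0.48 ± 0.12 with CHX (adjusted p = 0.0146) and by 0.67 ± 0.27 with CHX plus R1881 (adjusted p = 0.00442). The first of these calls was lost without experiment 1 of CHX (0.40, adjusted p = 0.119) and with the Cy3 arrays alone (0.32, adjusted p = 0.0925). GRB10, an adaptor that dampens IGF1R and insulin receptor signalling, fell by 1.56 ± 0.17 with CHX (adjusted p = 0.000384), and SHC1 fell by 0.67 ± 0.14 (adjusted p = 0.00162).

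Of 25 measured genes of PI3K, AKT, mTOR and FOXO signalling, 8 rose and 8 fell with CHX, and 7 rose and 7 fell with CHX plus R1881, beside 38% and 37.5% of all genes called. PDPK1, the kinase that activates AKT, rose by 1.01 ± 0.14 with CHX (adjusted p = 0.000486), and RHEB, the GTPase that activates mTORC1, by 1.03 ± 0.15 (adjusted p = 0.000658). PIK3R3, a regulatory subunit of PI3-kinase, fell by 1.27 ± 0.23 (adjusted p = 0.000722). FOXO1, a transcription factor that AKT holds out of the nucleus, had 1.28 ± 0.06 (adjusted p = 0.000234) as the mean of 2 probes that disagreed, with 2.55 at the probe of its RefSeq transcript and 0.01 at a clone named by the platform (adjusted p = 0.869). Of the 3 IGF2 mRNA-binding protein genes, which share part of their name with the IGFBP genes but encode RNA-binding proteins, IGF2BP2 rose by 0.83 ± 0.14 and IGF2BP1 fell by 0.90 ± 0.24 with CHX (adjusted p = 0.00108 and 0.00119). IGF2BP3 had −0.25 ± 0.21 (adjusted p = 0.0815) with CHX, and fell by 0.33 ± 0.12 with CHX plus R1881 (adjusted p = 0.0349), a call lost without either experiment of that treatment (−0.24 and −0.42, adjusted p = 0.267 and 0.0727) or without either R1881 experiment (adjusted p = 0.0776), and under 4 other alternatives (adjusted p from 0.0542 to 0.0967).

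**Figure D4:**
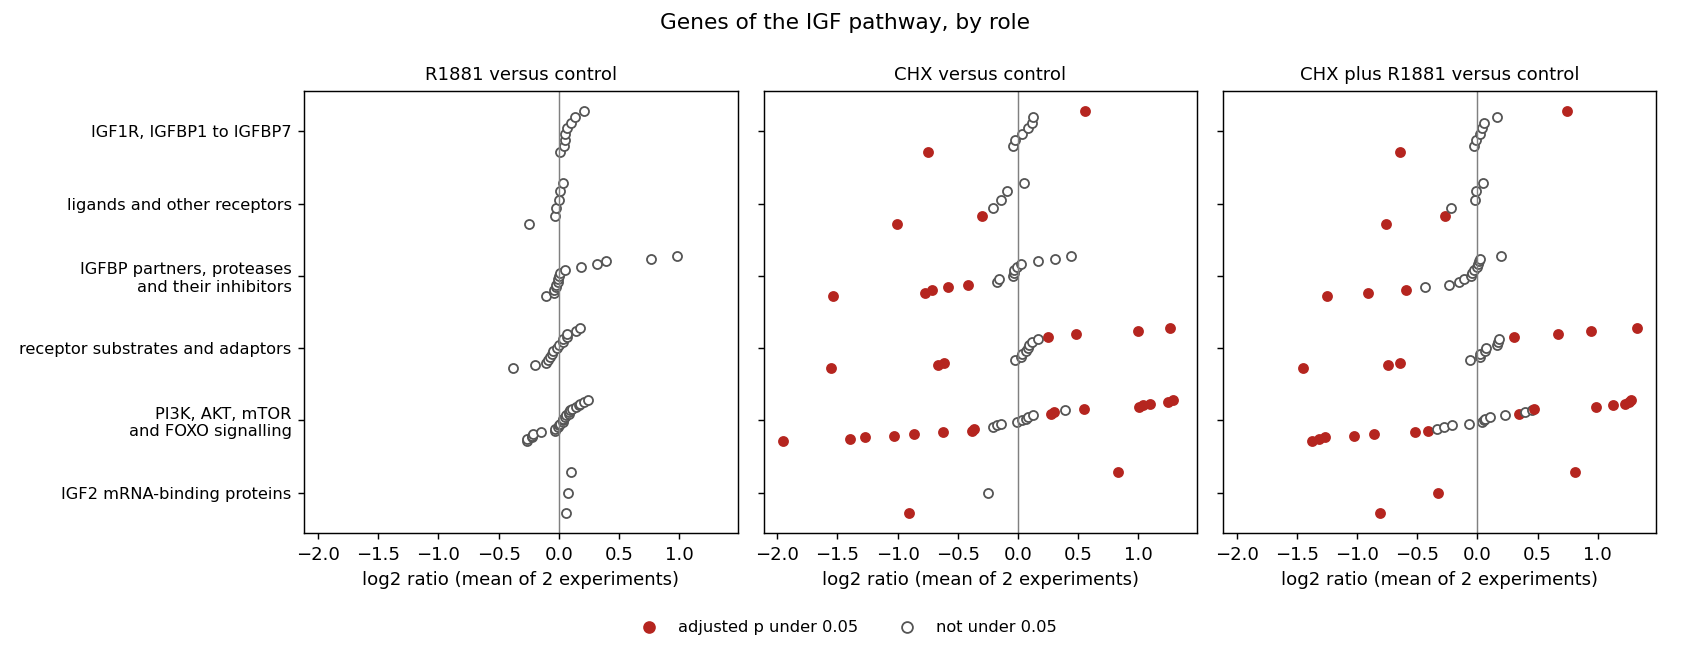
Mean log2 ratio (x axis) of each measured gene, grouped by role (y axis), in the 3 comparisons with control; filled points have an adjusted p under 0.05. With R1881 no point is filled, and with CHX the groups spread to both sides of 0, from −1.95 to 1.28.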

How the data were processed

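Processed values from 14 2-colour arrays of LNCaP RNA were used. Per the labels' protocols, total RNA was amplified and coupled to Cy3 or Cy5. The files, as deposited by the authors, hold 1 log ratio per probe and array, read here on the log2 scale; image analysis, background correction, normalization and log base are not given in the sources used here. If the base were not 2, printed log values would scale by a constant, fold changes and calls at a minimum fold would differ, and the other calls would stay. No intensities were used, so signal over background is unknown. The median deposited ratio over probes lay between −0.0035 and 0.0037 on every array. Rises and falls are thus relative to the median probe, and a shift shared by all transcripts would not be seen. The number of arrays and of experiments limits precision. Of 27648 probes, 17711 had 1 symbol, named through a RefSeq table by accession (14721) or else by the platform's symbol. Probes of a gene were averaged, and dye-swapped arrays were averaged to 1 value, giving 6 values fitted by limma 3.58.1 in R 4.3.3, 1 term per treatment, with 3 residual degrees of freedom. The fit treats the treatments' log ratios as independent although they were measured against control RNA, and whether controls were shared is not stated. Adjusted p values (Benjamini-Hochberg) run over 14533 genes. The fit was tested on simulated data with independent noise for each gene and value, which does not cover shared controls. The 8 genes, the pathway lists and the alternatives were chosen with earlier results of these data known. By rule, the text names all 8 genes, up to 4 called genes per pathway list by p, a few genes fixed by name, and the 2 nearest genes to each called member.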

Additional observations from a re-analysis of the deposited data

Results flagged for a closer look

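Dixon's gap test at the 95% level was run on 48 sets of 4 arrays (gene means, and single probes of genes with 2 probes). In 4 sets, 1 array lay far from the other 3. Chance passes this test in about 1 of 20 sets of independent values. Dye swaps of an experiment share extracts, and a gene's mean overlaps its probes, so that rate does not strictly apply here. All 4 were in R1881 versus control and in experiment 2. IGFBP5 stood at 0.37 on the array with the treated RNA in Cy5, against 0.01 to 0.02 on the other arrays, and its first probe at 0.93 against 0.05 to 0.11. IGFBP4 stood at 0.25 with the treated RNA in Cy3, against −0.04 to 0.01. The second IGFBP3 probe was the only low one, at 0.025 with the treated RNA in Cy5, against 0.10 to 0.11.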

How the results depend on the processing

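IGFBP2 and IGFBP3 kept their direction in both treatments with CHX under every alternative run. IGFBP3 ranged from 0.38 to 0.70 with CHX and from 0.51 to 0.96 with CHX plus R1881, and IGFBP2 from −0.79 to −0.51 and from −0.69 to −0.46. Of 624 alternative values of the 8 genes over 5 contrasts, 565 kept their sign and their side of the threshold, 3 lost a call and 56, none called, changed sign. Most of the 565 were uncalled in both fits, so that count says little about the calls. Each IGFBP2 call was lost under 1 of 15 alternatives. The IGFBP3 call was lost under 1 of 17 with CHX and 0 of 17 with CHX plus R1881. The number of the 8 genes called fell from 2 to 1 with CHX under quantile normalization, without experiment 1 of CHX and with a minimum change of 1.5-fold, and to 1 with CHX plus R1881 under quantile normalization. Leaving out 1 experiment at a time gave 1 to 2 with CHX, 2 to 2 with CHX plus R1881 and 0 to 0 in the other 3 contrasts. FOXO1 had −0.047 with CHX plus R1881 at its second probe alone. With R1881, quantile normalization called IGF2R (−0.52, adjusted p = 0.0232), GRB10 (−0.82, 0.0161) and PIK3R3 (−0.57, 0.0147), beside 737 of all 14533 genes. It also called KLK2 (adjusted p = 0.00643) and KLK3 (0.00318), and scaling over all arrays called KLK3 (0.0320).

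Over all genes, the count with R1881 moved from 1 to 2 with the replicate block, 172 with 4 arrays a group and a random block, 87 after scaling over all arrays, 737 after quantile normalization, which gives all arrays 1 distribution, 2 with each probe tested alone and 0 to 1 without 1 experiment. With CHX it moved from 5519 to 3430 under quantile normalization and to 2985 with the 1.5-fold minimum, and with CHX plus R1881 from 5443 to 3506 and 2986. Without 1 experiment it was 3697 to 5420 and 3402 to 5578, and 0 to 0 for R1881 in the presence of CHX and for the difference between the R1881 responses. The random block gave 2 calls in each of these contrasts, and scaling over all arrays and quantile normalization gave 1 each in the latter. Beyond these constructions the causes were not tested.

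The labels number the experiments 1 and 2 in each treatment without saying that equal numbers share a day or control. Differences between experiments 1 and 2 correlated across genes at 0.292 between R1881 and CHX and at 0.166 between R1881 and CHX plus R1881. Between CHX and CHX plus R1881 the correlation was 0.564. Equal numbers thus varied alike in part, which the main fit does not use. With the replicate block, 0 of 40 results of the 8 genes changed their call; adjusted p was 0.00181 for IGFBP3 and 0.00164 for IGFBP2 with CHX, and all genes called were 6542 with CHX and 6432 with CHX plus R1881. Among the pathway genes named, the block called IGF2BP3 with CHX (adjusted p = 0.0389) and KLK2 with CHX plus R1881 (adjusted p = 0.0317).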
